A study of Homo sapiens with 60 samples.

Results

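The genes described here serve protein folding and protein disposal in the endoplasmic reticulum (ER). The list has 37 members, all found by symbol among the 60675 Ensembl gene IDs of the count table, and was split by role into 12 luminal chaperones and their cofactors, 8 enzymes of disulfide bond formation, 10 genes of ER-associated degradation, 5 stress sensors and regulators, and 2 translocon subunits. RNA sequencing gave their expression in cells of the established human lung carcinoma line A549 harvested 24 h after addition of a herbal extract or of vehicle. The vehicle group had 3 libraries, with DMSO at 0.1% per the sample labels and 2% per the series text. Water extracts of the formulas Sayeok-tang (n = 3 libraries a dose) and Bojungikgi-tang (n = 2) were given at a high dose of 500, a medium dose of 100 and a low dose of 20 µg/mL. Ethanol (70%) extracts of Zingiberis Rhizoma Recens (fresh ginger), Zingiberis Rhizoma (dried ginger) and Pinelliae Tuber shared these doses, with 3 libraries each. For Scutellariae Radix, extracted in the same way, the doses were 190, 38 and 7.6 µg/mL, with 3 libraries each. A single library a dose was made for 2 further ethanol extracts, that of Coptidis Rhizoma at 110, 22 and 4.4 µg/mL and that of Zizyphi Fructus at the 3 doses of the gingers. High, medium and low below refer to these doses, and they are not equal across extracts.

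Secreted and membrane proteins enter the ER through the SEC61 channel and fold there with the help of chaperones. BiP (HSPA5) and GRP94 (HSP90B1) bind unfolded chains, calnexin (CANX) and calreticulin (CALR) bind chains that carry N-glycans, and the protein disulfide isomerases form and rearrange disulfide bonds. Chains that do not fold are taken to the cytosol by the HRD1 complex (SYVN1, SEL1L, HERPUD1, OS9 and the derlins) and degraded by the proteasome. The unfolded protein response has the sensors ATF6, IRE1 (ERN1) and PERK (EIF2AK3). Cleaved ATF6 and the spliced form of XBP1, which IRE1 makes, switch on chaperone and degradation genes, while PERK acts through ATF4. Gene counts do not separate spliced from unspliced XBP1 mRNA, nor cleaved from whole ATF6 protein.

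The DNA element that ATF6 recognises next to the general factor NF-Y is short enough to be read in the promoters. RefSeq promoter windows (GRCh38.p14, 250 bases before to 50 bases after the transcription start) were matched for 34 of the 37 members. The ER stress response element, ERSE, searched on both strands as CCAAT, 9 bases of any kind and then CCACG, lay in 7 of the 34 windows (20.6%) and in 19 of 15842 windows of protein-coding genes (0.12%). ERSE-II, searched as ATTGG, 1 base of any kind and then CCACG, lay in 3 of 34 (8.8%) and 12 of 15842 (0.076%). The 10 members with either element were HSPA5, HSP90B1, HYOU1, CANX, CALR, CRELD2 and SDF2L1 among the 12 chaperones, ERO1B among the disulfide enzymes, HERPUD1 among the degradation genes and XBP1 among the regulators. HYOU1 carried 2 copies of ERSE-II and HSP90B1 2 copies of ERSE. The XBP1-type core TGACGTG lay in 2 of 34 windows, those of HYOU1, where it overlaps the farther copy of ERSE-II, and DNAJC10, against 2.108% of protein-coding windows. The C/EBP-ATF element of ATF4 targets, searched as TGATG, 1 base and AA, lay in 1 of 34, HERPUD1, against 2.531%. A match describes these letters only and shows no binding.

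**Figure D1:**
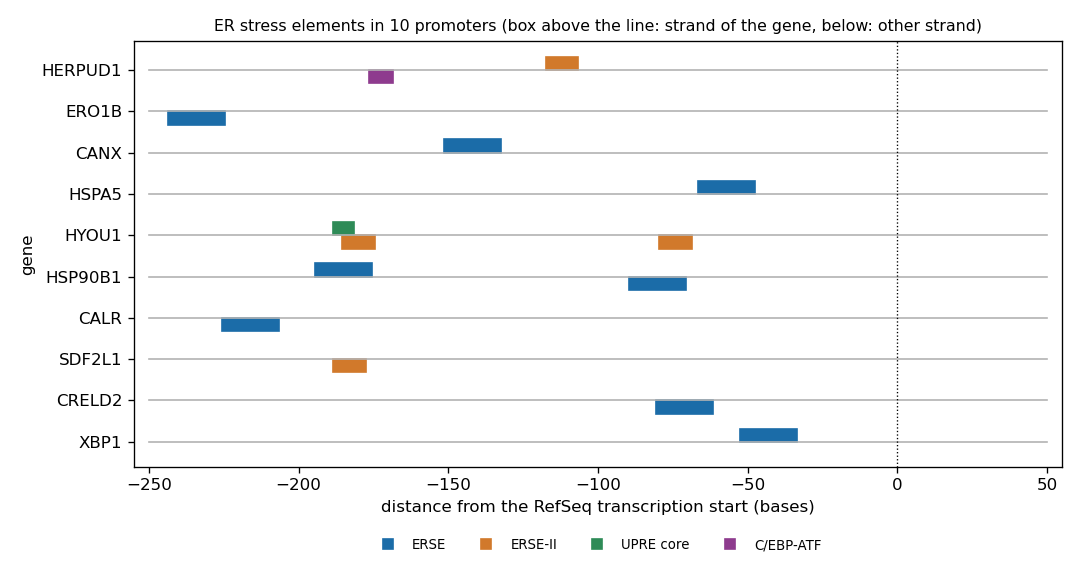
Position of 4 searched elements in the promoters of the 10 members that hold ERSE or ERSE-II, in bases from the RefSeq transcription start. Boxes above a line are on the strand of the gene and boxes below it on the other strand; every ERSE and ERSE-II box lies before the start, from 243 to 34 bases away.

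The 250 bases before the start are printed for 6 members, 5' to 3' on the strand of the gene, with ERSE or ERSE-II in capitals. Ensembl gene IDs are ENSG00000044574 for HSPA5, ENSG00000149428 for HYOU1, ENSG00000051108 for HERPUD1, ENSG00000100219 for XBP1, ENSG00000179218 for CALR and ENSG00000128228 for SDF2L1. HSPA5, at chr9:125241344-125241593 (minus strand), HYOU1, at chr11:119057206-119057455 (minus strand), HERPUD1, at chr16:56931892-56932141 (plus strand), and XBP1, at chr22:28800570-28800819 (minus strand), are shown because they were higher at the high dose of Scutellariae Radix. CALR, at chr19:12938359-12938608 (plus strand), and SDF2L1, at chr22:21642052-21642301 (plus strand), are shown because they hold an element of the same kind and were lower. For SDF2L1 that call did not hold with each library left out, and its level was below the vehicle mean in every treated group.
HSPA5: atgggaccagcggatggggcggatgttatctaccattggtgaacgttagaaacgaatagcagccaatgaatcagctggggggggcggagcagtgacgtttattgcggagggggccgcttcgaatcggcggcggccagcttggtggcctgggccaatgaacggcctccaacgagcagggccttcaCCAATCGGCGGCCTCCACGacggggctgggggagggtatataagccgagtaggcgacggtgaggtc
HYOU1: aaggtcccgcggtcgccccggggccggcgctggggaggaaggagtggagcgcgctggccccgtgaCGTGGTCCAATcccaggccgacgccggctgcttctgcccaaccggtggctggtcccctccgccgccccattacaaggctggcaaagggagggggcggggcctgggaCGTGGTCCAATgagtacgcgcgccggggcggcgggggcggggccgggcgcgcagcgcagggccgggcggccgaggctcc
HERPUD1: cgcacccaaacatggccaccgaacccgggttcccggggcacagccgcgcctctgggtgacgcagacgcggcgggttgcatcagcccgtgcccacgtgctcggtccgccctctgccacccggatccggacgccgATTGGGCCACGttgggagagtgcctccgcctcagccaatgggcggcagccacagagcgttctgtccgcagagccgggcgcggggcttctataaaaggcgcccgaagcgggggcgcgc
XBP1: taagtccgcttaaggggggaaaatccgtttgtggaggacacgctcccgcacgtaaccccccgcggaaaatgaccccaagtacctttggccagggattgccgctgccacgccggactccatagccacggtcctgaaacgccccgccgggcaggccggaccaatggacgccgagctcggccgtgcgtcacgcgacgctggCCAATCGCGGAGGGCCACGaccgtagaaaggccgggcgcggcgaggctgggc
CALR: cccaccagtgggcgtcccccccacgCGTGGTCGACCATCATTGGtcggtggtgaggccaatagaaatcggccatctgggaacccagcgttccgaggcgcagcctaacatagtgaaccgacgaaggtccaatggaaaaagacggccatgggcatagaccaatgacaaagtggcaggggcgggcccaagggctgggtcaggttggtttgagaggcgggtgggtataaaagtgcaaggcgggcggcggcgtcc
SDF2L1: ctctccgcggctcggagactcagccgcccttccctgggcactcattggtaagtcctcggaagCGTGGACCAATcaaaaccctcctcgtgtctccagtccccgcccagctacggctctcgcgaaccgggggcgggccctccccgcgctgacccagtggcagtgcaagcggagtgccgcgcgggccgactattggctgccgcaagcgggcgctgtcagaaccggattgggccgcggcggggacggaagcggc

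The 60 libraries held between 17.51 and 38.54 M counts (median 23.53 M, where 1 M is 1000000). Mitochondrial transcripts took 8.29% to 15.9% of counts, with the highest shares in the medium (15.9%) and low (15.0%) Coptidis Rhizoma libraries, against 9.05% ± 0.42 (SD, n = 3) in vehicle. The A549 markers ALDH1A1 and KRT8 were abundant in every library (ALDH1A1 5520 to 7150 CPM, counts per 1000000; KRT8 1940 to 3670 CPM), while the epithelial markers CDH1 (20.8 to 37.7 CPM), KRT19 (17.5 to 30.7 CPM) and EPCAM (3.84 to 6.54 CPM) were lower. Defining markers of leukocytes (PTPRC up to 0.048 CPM, CD3E 0), endothelium (PECAM1 up to 0.123 CPM) and fibroblasts (DCN up to 0.147 CPM) were at or near 0. Detected in every library at higher levels were COL1A1 (17.4 to 36.0 CPM), CD68 (5.09 to 16.9 CPM), COL3A1 (0.752 to 2.55 CPM) and CD14 (0.653 to 2.28 CPM). Fewer cells and less RNA per cell cannot be told apart in such bulk samples. Nothing in the labels says if replicates were separate cultures, so the p-values measure the spread between these libraries, which may be technical. All 60 titles carry the same batch label. Sample codes of the vehicle libraries begin differently from those of the extracts, and the labels do not say what the codes stand for. A change between doses or between extracts is estimated without the vehicle levels, although the vehicle libraries enter the spread of each fit.

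In vehicle cells the members spanned a wide range of abundance. Per kilobase of transcript, the highest were HSP90B1 at 286 ± 2.3 (SD, n = 3) CPM per kb, CALR at 248 ± 3.6, the disulfide isomerase P4HB at 229 ± 5.2 and CANX at 210 ± 6.1. HSPA5 (163 ± 6.3) and the isomerase PDIA6 (166 ± 5.5) followed and did not differ beyond their spread. The sensors were at the other end, with ATF6 at 5.89 ± 0.26, EIF2AK3 at 5.31 ± 0.23 and ERN1 at 2.03 ± 0.08 CPM per kb. The co-chaperone DNAJB9 (5.25 ± 0.59) and the oxidase ERO1B (3.29 ± 0.06) were there too. XBP1 stood between, at 32.2 ± 3.4 CPM per kb. DERL3, the third derlin, was at 0 to 0.503 CPM over the 60 libraries and was removed by the filter on low counts, so 36 of 37 members were tested in each comparison. No other member failed the filter. Levels below are in CPM without division by length and are compared only within a gene.

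**Figure D2:**
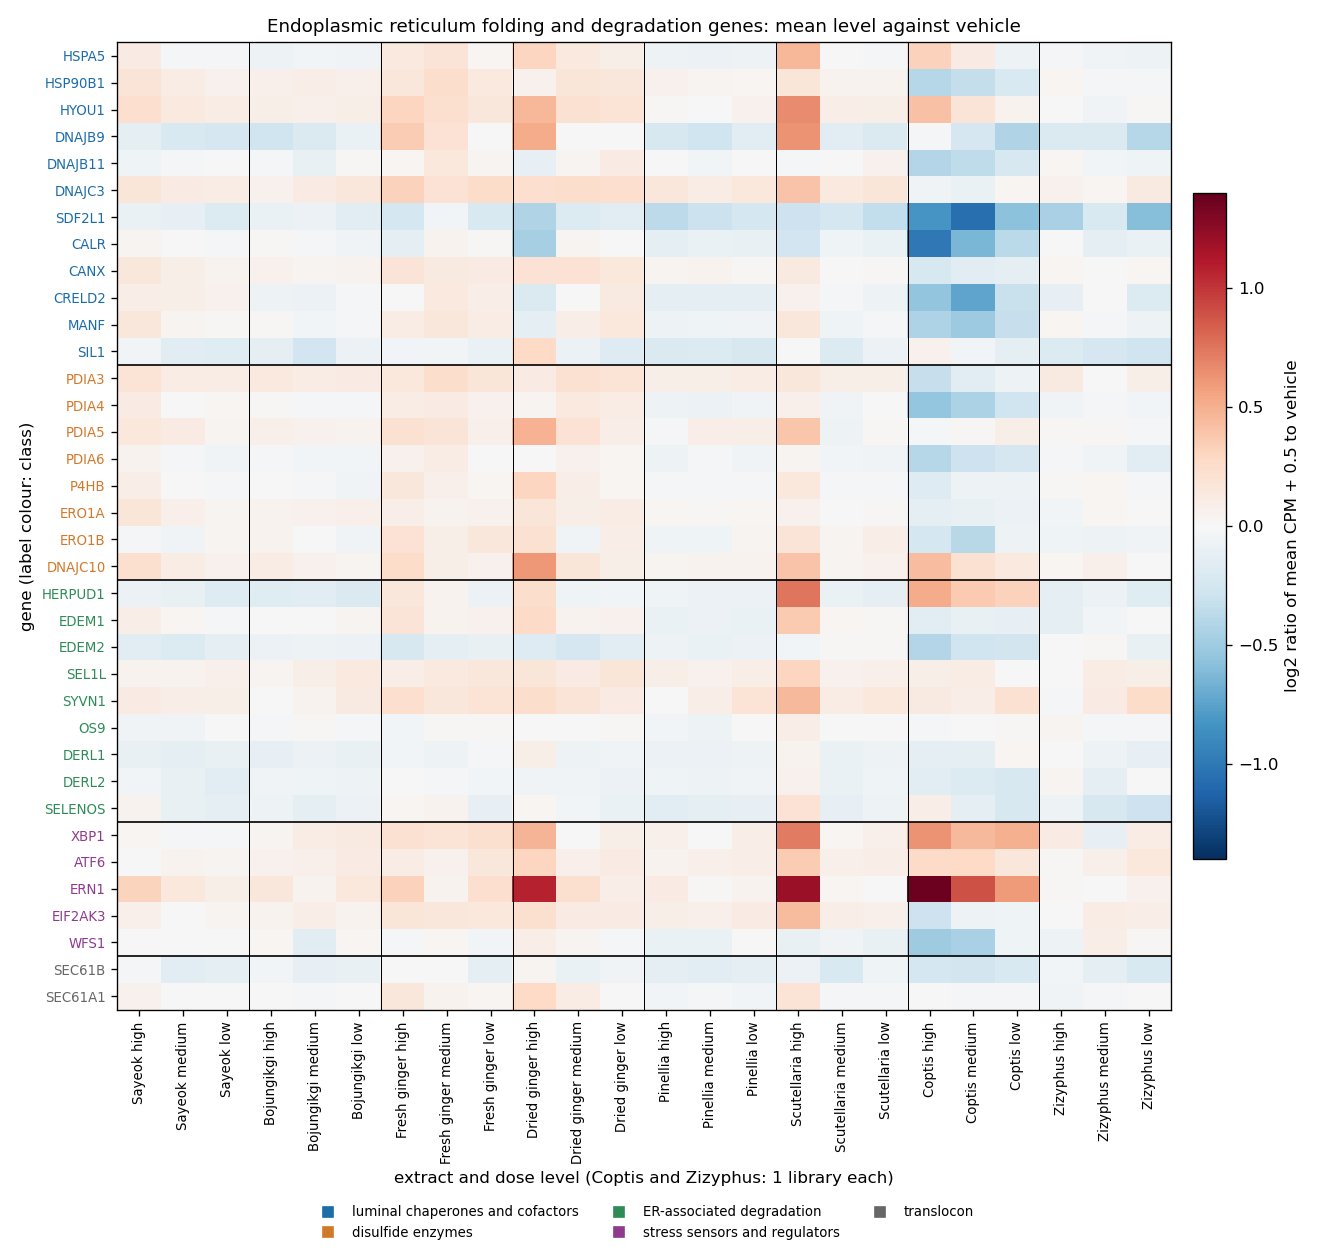
Mean level of the 36 tested members (rows, grouped and coloured by class) in the 24 treated groups (columns) as the log2 ratio of mean CPM + 0.5 to vehicle, red for higher and blue for lower. Coptidis Rhizoma (Coptis) and Zizyphi Fructus (Zizyphus) columns are single libraries. The strongest red cells are ERN1 at the high doses of Coptis (1.37), Scutellaria (1.21) and dried ginger (1.07), and blue cells in the Coptis columns mark SDF2L1 and CALR.

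With Scutellariae Radix at 190 µg/mL ERN1, XBP1, HERPUD1, HYOU1 and BiP were among the members that were higher, and calreticulin was lower. Against vehicle, 24 of the 36 tested members were higher and 2 were lower, where 20.2% of all 16582 genes tested were called higher and 20.0% lower. A member was called at an adjusted p under 0.05. Their median log2 change was 0.17, against 0.01 over all genes tested. By class, 7 of 12 chaperones and cofactors were higher and 2 lower, 6 of 8 disulfide enzymes, 6 of 9 tested degradation genes and 4 of 5 sensors and regulators were higher, and so was the translocon subunit SEC61A1. With each library left out in turn, 21 of the 26 calls held every time.

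The IRE1 gene ERN1 (ENSG00000178607) was at 34.9, 40.0 and 37.5 CPM with Scutellariae Radix at 190 µg/mL, against 15.7, 16.7 and 15.4 CPM in vehicle, so that every treated library held more than 2 times the level of any vehicle library. Its log2 change was 1.23 ± 0.07 (SE, adjusted p = 8.64e-18). XBP1, which encodes the substrate of IRE1, was at 101, 97.1 and 98.6 CPM against 54.6, 57.5 and 66.7 CPM. It rose by 0.73 ± 0.08 (log2, adjusted p = 2.9e-06). The other sensor genes rose less, EIF2AK3 by 0.45 ± 0.06 (adjusted p = 2.11e-08) and ATF6 by 0.36 ± 0.05 (adjusted p = 2.15e-08). WFS1, a membrane protein of the ER that restrains ATF6, had a log2 change of -0.10 ± 0.06 (adjusted p = 0.179).

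Among the degradation genes, HERPUD1, a scaffold of the HRD1 complex, was at 76.5, 79.9 and 77.6 CPM after Scutellariae Radix at 190 µg/mL and at 45.3, 46.9 and 46.7 CPM in vehicle. The groups did not overlap, and the log2 change was 0.75 ± 0.05 (adjusted p = 2.21e-16). SYVN1, the ubiquitin ligase HRD1 itself, rose by 0.46 ± 0.05 (adjusted p = 8.95e-09) and its partner SEL1L by 0.30 ± 0.03 (adjusted p = 7.11e-10). EDEM1, a mannosidase-like protein that marks glycoproteins for disposal, rose by 0.37 ± 0.04 (adjusted p = 1.06e-09), while its relative EDEM2 was at -0.04 ± 0.04 (adjusted p = 0.554). The derlins DERL1 (0.05 ± 0.04, adjusted p = 0.353) and DERL2 (0.06 ± 0.04, adjusted p = 0.252), which belong to the exit channel, were not called.

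The chaperones divided. HYOU1, a large Hsp70-type protein that exchanges the nucleotide of BiP, was at 134, 134 and 127 CPM after Scutellariae Radix at 190 µg/mL and at 81.4, 84.0 and 82.8 CPM in vehicle, a log2 change of 0.67 ± 0.04 (adjusted p = 3.64e-18). DNAJB9, a BiP co-chaperone, was at 21.9, 24.1 and 21.2 CPM against 12.8 to 16.0 CPM (0.66 ± 0.07, adjusted p = 2.55e-09). BiP itself, HSPA5, was at 899, 898 and 844 CPM against 615, 635 and 664 CPM (0.47 ± 0.03, adjusted p = 1.04e-14). HSP90B1 rose less, by 0.17 ± 0.03 (adjusted p = 1.37e-05). In each of these genes the lowest treated library lay above the highest vehicle library.

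Calreticulin went the other way. CALR was at 399, 384 and 392 CPM after Scutellariae Radix at 190 µg/mL and at 478, 464 and 473 CPM in vehicle, a log2 change of -0.27 ± 0.03 (adjusted p = 8.22e-09), with no overlap of the groups. SDF2L1, a cofactor of the DNAJB11 and BiP cycle, was at 14.5, 11.7 and 15.3 CPM against 15.0, 18.4 and 17.7 CPM, so that 1 treated library lay within the vehicle range. Its change of -0.30 ± 0.11 (adjusted p = 0.0266) was no longer called without vehicle replicate 2 (adjusted p = 0.12), vehicle replicate 3 (0.086) or the treated replicate 2 (0.153). SDF2L1 was below the vehicle mean in every treated group of every extract (log2 ratio -1.06 to -0.04). It was not called between the high and the low dose of Scutellariae Radix. CRELD2 (0.06 ± 0.08, adjusted p = 0.57), DNAJB11 (-0.01 ± 0.04, 0.869) and the nucleotide exchange factor SIL1 (0.00 ± 0.06, 0.994) were not called. Calnexin, the membrane-bound relative of calreticulin, rose by 0.12 ± 0.03 (adjusted p = 0.00113).

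Of the disulfide enzymes, DNAJC10, a reductase that works with the degradation pathway, rose by 0.40 ± 0.03 (adjusted p = 6.58e-14), from 182 to 189 CPM in vehicle to 243 to 249 CPM with Scutellariae Radix at 190 µg/mL. PDIA5 rose by 0.40 ± 0.06 (adjusted p = 3.04e-06). PDIA4 changed little, at 0.08 ± 0.03 (adjusted p = 0.0384), and lost its call without vehicle replicate 1 (adjusted p = 0.104), vehicle replicate 2 (0.16), treated replicate 1 (0.0897) or treated replicate 2 (0.174). PDIA6 (0.03 ± 0.03, adjusted p = 0.44) and the oxidase ERO1A (0.06 ± 0.04, adjusted p = 0.2) were not called. In the translocon, SEC61A1, the channel itself, rose by 0.19 ± 0.03 (adjusted p = 4.6e-06), and SEC61B was at -0.08 ± 0.05 (adjusted p = 0.226).

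Few members were called at the lower doses of Scutellariae Radix. At 38 µg/mL 1 member was higher and 1 lower, with 8.9% of all genes called in either direction, and at 7.6 µg/mL again 1 and 1, with 8.89%. The calls were DNAJC3 (0.15 ± 0.04, adjusted p = 0.0313) and SEC61B (-0.22 ± 0.05, 0.00729) at 38 µg/mL, and DNAJC3 (0.17 ± 0.04, 0.0127) and SDF2L1 (-0.35 ± 0.11, 0.0435) at 7.6 µg/mL. Each of these calls was lost with at least 1 library left out (adjusted p 0.0569 to 0.178). The count of 2 at 38 µg/mL became 4 without vehicle replicate 1 and 1 without vehicle replicate 2 or 3 or treated replicate 2 or 3. At 7.6 µg/mL it became 1 without vehicle replicate 2 or 3 or treated replicate 1 or 2. The high dose set against the low dose, which leaves the vehicle levels out, gave 25 members higher and 1 lower, where 15.5% of all genes were called higher and 15.6% lower. In that comparison ERN1 rose by 1.23 ± 0.07 (adjusted p = 3.44e-17), HERPUD1 by 0.88 ± 0.05 (7.43e-18) and DNAJB9 by 0.86 ± 0.08 (2.01e-11), and 8 of 9 degradation genes were higher. Of these 8, OS9, DERL1 and DERL2 were not called without high-dose replicate 3 or low-dose replicate 2 (adjusted p 0.0718 to 0.133), which left 5. Without high-dose replicate 2 DERL1 and DERL2 were not called (0.0684 and 0.0912), and without low-dose replicate 3 DERL1 (0.0786). With each library left out in turn, 21 of the 26 calls held every time. CALR was the lower one, at -0.17 ± 0.03 (adjusted p = 4.52e-05), and SDF2L1 was at 0.05 ± 0.11 (adjusted p = 0.794).

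**Figure D3:**
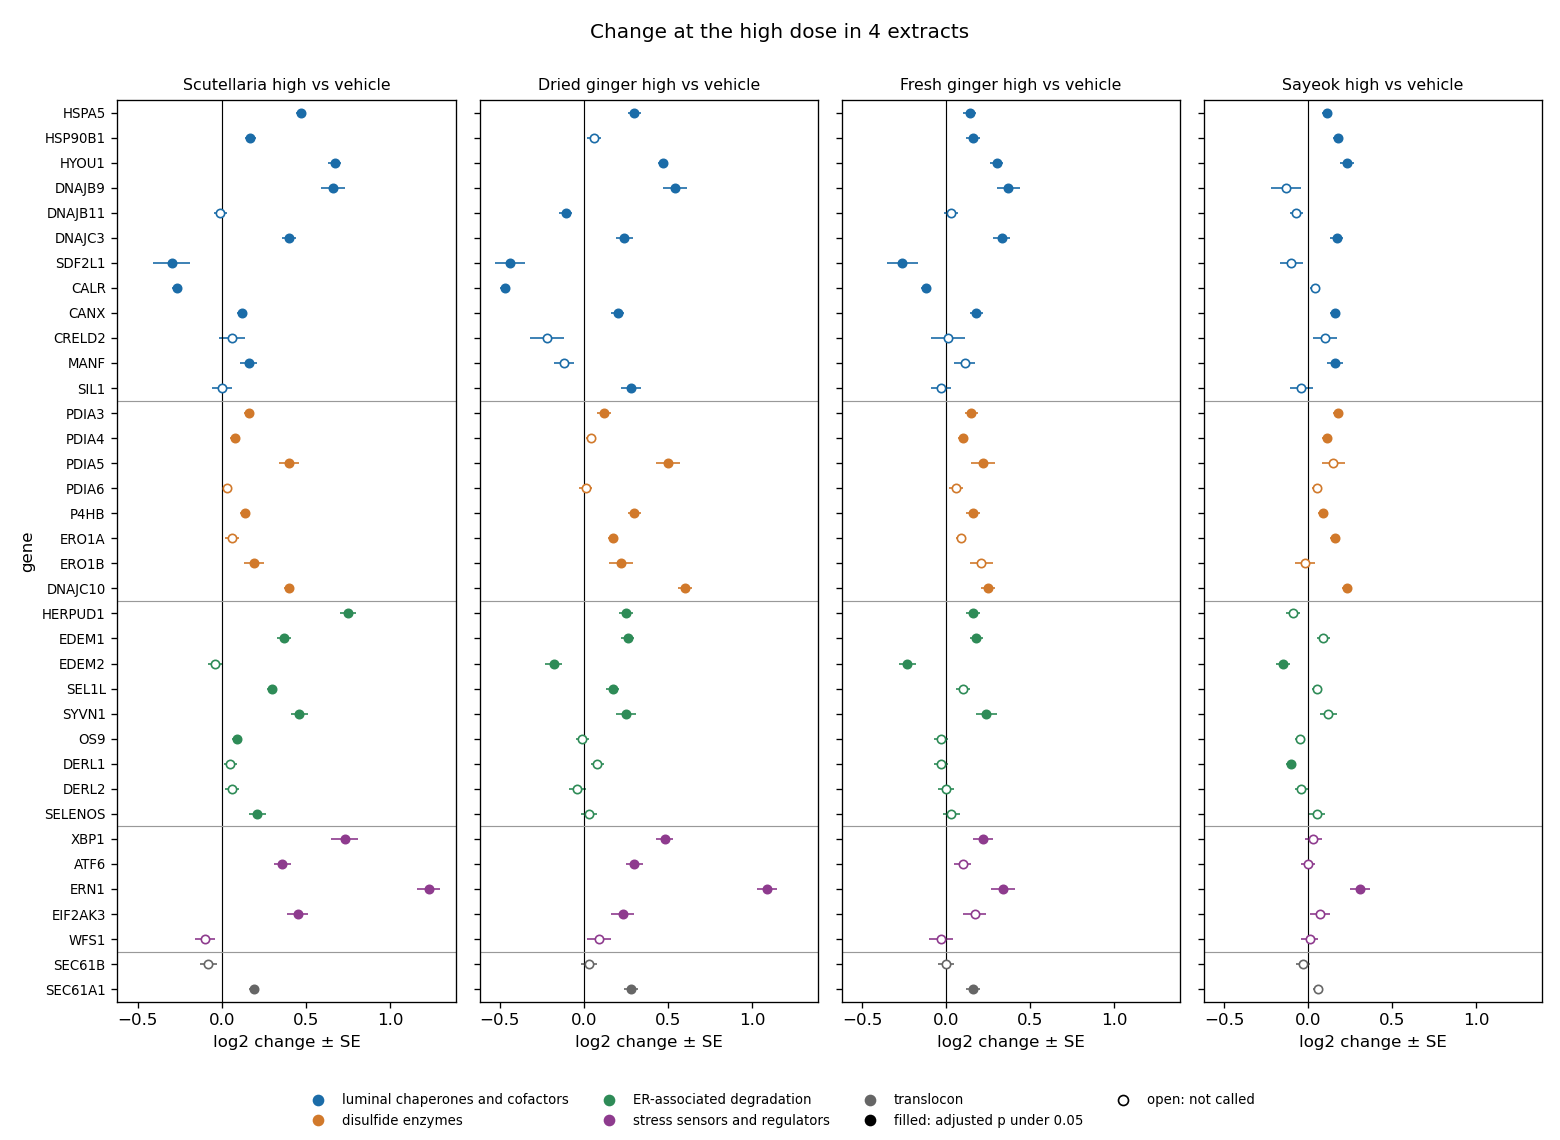
Log2 change at the high dose against vehicle, with its standard error, for the 36 tested members in the 4 extracts with the most calls, coloured by class; filled points are called at an adjusted p under 0.05. The rightmost points are ERN1 with Scutellariae Radix (1.23) and dried ginger (1.09), and CALR lies left of 0 with Scutellariae Radix (-0.27), dried ginger (-0.47) and fresh ginger (-0.12). All panels share the 3 vehicle libraries.

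With dried ginger at 500 µg/mL ERN1 and DNAJC10 had the largest increases of all members, and calreticulin the largest decrease. Against vehicle 21 members were higher and 4 lower, where 20.2% of all 16628 genes tested were called higher and 19.0% lower, and the median log2 change was 0.19 against 0.01 over all genes. Of the 12 chaperones and cofactors 6 were higher and 3 lower, and 6 of 8 disulfide enzymes, 4 of 9 degradation genes, 4 of 5 sensors and regulators and SEC61A1 were higher, with 1 degradation gene lower. With each library left out in turn, 21 of the 25 calls held.

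ERN1 was at 33.0, 35.9 and 33.4 CPM after dried ginger at 500 µg/mL, against 15.4 to 16.7 CPM in vehicle (log2 change 1.09 ± 0.06, adjusted p = 4.34e-14). XBP1 was at 82.0, 81.6 and 84.9 CPM against 54.6 to 66.7 CPM (0.48 ± 0.05, adjusted p = 4.48e-08). Neither gene's treated libraries overlapped vehicle. HYOU1 rose by 0.47 ± 0.03 (adjusted p = 8.41e-12), DNAJB9 by 0.54 ± 0.07 (4.01e-07) and HSPA5 by 0.30 ± 0.04 (3.5e-07). HSP90B1 was at 859, 840 and 862 CPM and PDIA4 at 249 to 259 CPM, and neither was called (0.06 ± 0.04, adjusted p = 0.212, and 0.04 ± 0.03, adjusted p = 0.424).

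The reductase DNAJC10 was at 281, 275 and 292 CPM after dried ginger at 500 µg/mL and at 182 to 189 CPM in vehicle, the largest change of a disulfide enzyme there (0.60 ± 0.04, adjusted p = 1.35e-13). PDIA5 rose by 0.50 ± 0.07 (adjusted p = 6.46e-07). SEC61A1 rose by 0.28 ± 0.04 (adjusted p = 1.15e-06). HERPUD1 was at 54.7, 53.4 and 57.1 CPM, above every vehicle library and under every library of Scutellariae Radix at 190 µg/mL, and rose by 0.25 ± 0.04 (adjusted p = 1.59e-05). EDEM1 rose by 0.26 ± 0.04 (1.47e-05) and SYVN1 by 0.25 ± 0.06 (0.00161), while EDEM2 was lower, at -0.18 ± 0.05 (0.00475). EDEM2 was below every vehicle library at each dose of dried ginger, fresh ginger and Sayeok-tang, and not at the high dose alone.

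Calreticulin was at 345, 334 and 344 CPM after dried ginger at 500 µg/mL, all more than 100 CPM below the lowest vehicle library (464 CPM). Its log2 change was -0.47 ± 0.03 (adjusted p = 6.5e-12). SDF2L1 was at 12.7, 12.9 and 12.2 CPM, under every vehicle library (15.0 to 18.4 CPM), with a change of -0.44 ± 0.09 (adjusted p = 0.000143). The third chaperone called lower was DNAJB11 (-0.11 ± 0.04, adjusted p = 0.0353), which lost its call with each of the libraries left out except vehicle replicate 1 (adjusted p 0.061 to 0.161). It is named here after its value was seen.

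Against its own low dose, dried ginger at 500 µg/mL had 14 members higher and 6 lower, where 16.8% of all genes were called higher and 16.0% lower. All 6 lower members were chaperones or cofactors, so that in this class 4 of 12 were higher and 6 lower. CALR fell by 0.48 ± 0.03 (log2, adjusted p = 5.4e-12) and CRELD2, a small ER protein with EGF-like repeats, by 0.35 ± 0.10 (0.00755). The others, named after their values were seen, were SDF2L1 (-0.28 ± 0.09, 0.0143), MANF (-0.27 ± 0.06, 0.000377), DNAJB11 (-0.23 ± 0.04, 0.000121) and HSP90B1 (-0.10 ± 0.04, 0.0397). SDF2L1 (adjusted p = 0.0691) and CRELD2 (0.074) were not called without high-dose replicate 3, and HSP90B1 was not called with any of the 6 libraries left out (0.0535 to 0.161). In the same comparison HSPA5 rose by 0.22 ± 0.04 (7.22e-05), HYOU1 by 0.28 ± 0.03 (2.71e-07), DNAJB9 by 0.55 ± 0.07 (4.6e-07) and SIL1 by 0.47 ± 0.06 (2.28e-07).

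At the medium dose of dried ginger 8 members were higher and 1 lower, where 6.15% of all genes were called in either direction, and at the low dose 6 were higher and none lower, where 3.6% were. The lower member was EDEM2, not called without medium-dose replicate 2 (adjusted p = 0.0616). The chaperones HYOU1 (0.21 ± 0.04, adjusted p = 0.00047, and 0.19 ± 0.04, 0.00299) and DNAJC3 (0.25 ± 0.05, 0.00112, and 0.24 ± 0.05, 0.00426) were among the calls at both doses. HSP90B1 was too (0.17 ± 0.04, 0.00531, and 0.16 ± 0.04, 0.0153), but at the low dose not without vehicle replicate 2 or 3 or low-dose replicate 2 or 3 (0.0502 to 0.0793). Such shifts were not particular to dried ginger. DNAJC3 lay above every vehicle library in each replicated group of every extract. HYOU1 did so except with Bojungikgi-tang high and Pinelliae Tuber high and medium, and HSP90B1 except with Pinelliae Tuber low and Scutellariae Radix low. PDIA3 was above the vehicle mean in each replicated group of every extract (log2 ratio 0.08 to 0.25). All of these groups are set against the same vehicle libraries, and the part of those libraries was not tested. At the medium dose HSPA5 (0.13 ± 0.04, 0.0439) was not called without any of the 6 libraries but vehicle replicate 3 (0.0805 to 0.153), and PDIA4 (0.14 ± 0.03, 0.0127) not without vehicle replicate 2 or medium-dose replicate 2 or 3 (0.0514 to 0.0661). The low-dose count of 6 became 3 without vehicle replicate 2 or 3 and 2 without low-dose replicate 3. ERN1, at 18.7 ± 1.1 (SD, n = 3) CPM at 100 µg/mL and 17.1 ± 0.5 CPM at 20 µg/mL, and XBP1, at 59.5 ± 1.8 and 63.1 ± 1.4 CPM, were not called at either.

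With fresh ginger at 500 µg/mL many of these genes were called at log2 changes of at most 0.37. Against vehicle 17 members were higher and 3 lower, where 6.21% of all genes were called higher and 7.16% lower, with a median log2 change of 0.12 against 0.01 over all genes. The classes gave 6 higher and 2 lower of 12 chaperones, 5 of 8 disulfide enzymes higher, 3 higher and 1 lower of 9 degradation genes, 2 of 5 sensors and regulators higher, and SEC61A1 higher. The count of 20 became 13 without fresh ginger high-dose replicate 2, and 11 of the 20 calls held with each library left out in turn.

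DNAJB9 was at 18.5, 18.4 and 18.1 CPM after fresh ginger at 500 µg/mL, above every vehicle library (12.8 to 16.0 CPM), with a log2 change of 0.37 ± 0.07 (adjusted p = 0.00094). DNAJC3, a BiP co-chaperone also known as an inhibitor of PERK, rose by 0.33 ± 0.05 (1.25e-05) and HYOU1 by 0.30 ± 0.04 (6.77e-07). ERN1 was at 21.1, 21.2 and 18.1 CPM (0.34 ± 0.07, adjusted p = 0.00104), above every vehicle library and below every dried ginger library of the same dose. DNAJC10 rose by 0.25 ± 0.04 (2.53e-05), SEC61A1 by 0.16 ± 0.04 (0.00745), EDEM1 by 0.18 ± 0.04 (0.00573), and EDEM2 was lower, at -0.23 ± 0.05 (0.00353). These calls, and that of HSP90B1 (0.16 ± 0.04, 0.00558), held with each library left out. EDEM2 was below every vehicle library at the medium and low dose of fresh ginger too.

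Others rested on single libraries of the fresh ginger comparison. HSPA5 (0.14 ± 0.04, adjusted p = 0.0166) was not called without vehicle replicate 1 or 2 or high-dose replicate 3 (0.0536 to 0.112), and XBP1 (0.22 ± 0.06, 0.00749) not without vehicle replicate 1 or high-dose replicate 2 (0.0603 and 0.0646). HERPUD1 (0.16 ± 0.04, 0.0108) was not called without high-dose replicate 2 (0.0564), and SYVN1 (0.24 ± 0.06, 0.00891) not without vehicle replicate 2 or high-dose replicate 2 (0.0588 and 0.0581). PDIA5 (0.22 ± 0.07, 0.0285) was not called without vehicle replicate 1 or 3 or high-dose replicate 2 or 3 (0.0682 to 0.126), and PDIA4 (0.10 ± 0.03, 0.0449) not with any of the 6 libraries left out except vehicle replicate 3 (0.0658 to 0.205). CALR, at 433, 423 and 444 CPM against 464 to 478 CPM (-0.12 ± 0.03, 0.0168), was not called without vehicle replicate 1 or 3 or high-dose replicate 1 or 2 (0.0541 to 0.0909). SDF2L1 (-0.26 ± 0.09, 0.0428) was called with all libraries and without vehicle replicate 1, and not without any of the other 5 (0.0546 to 0.207).

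At 100 µg/mL fresh ginger gave 5 higher members and none lower (0.77% of all genes called), and at 20 µg/mL 8 higher and none lower (6.48%). HSP90B1 (0.25 ± 0.04, adjusted p = 0.000428), HYOU1 (0.22 ± 0.04, 0.000961), DNAJC3 (0.21 ± 0.05, 0.027), PDIA3 (0.25 ± 0.04, 0.0011) and HSPA5 (0.19 ± 0.04, 0.0158) were the 5 at 100 µg/mL. That count became 3 without vehicle replicate 1 or 2, where HSPA5 and DNAJC3 were not called (adjusted p 0.0718 to 0.116). DNAJC3 was not called without vehicle replicate 3 (0.0633) or medium-dose replicate 1 (0.1) or 3 (0.157) either. The 8 at 20 µg/mL included DNAJC3 (0.26 ± 0.05, 0.00119) and HYOU1 (0.16 ± 0.04, 0.00784), the latter not called without low-dose replicate 1 (0.0508). ERN1 was called there too, at 18.5, 17.9 and 20.0 CPM (0.24 ± 0.07, 0.0316), as was XBP1 (0.23 ± 0.06, 0.0128), and both were above every vehicle library. Between the high and the low dose neither was called (ERN1 0.10 ± 0.07, 0.575, and XBP1 -0.01 ± 0.06, 0.986). At 20 µg/mL ERN1 lost its call without any of the 6 libraries but vehicle replicate 2 (0.0504 to 0.145), XBP1 without vehicle replicate 1 or 2 or low-dose replicate 3 (0.0543 to 0.0717) and HSP90B1 (0.14 ± 0.04, 0.0283) without any of the 6 (0.0643 to 0.114). The count of 8 became 3 without vehicle replicate 2, 4 without vehicle replicate 3 or low-dose replicate 2 or 3, and 5 without vehicle replicate 1 or low-dose replicate 1. The high dose against the low dose gave 5 higher (1.72% of all genes) and 1 lower (1.95%), with DNAJB9 (0.35 ± 0.07, 0.0032), HERPUD1 (0.24 ± 0.04, 0.000611) and DNAJC10 (0.19 ± 0.04, 0.00135) called in every refit. The count of 6 became 3 without high-dose replicate 1 or 2 or low-dose replicate 3. With the replicate number as a block, which the data bear out in this comparison, SEC61A1 was called too (0.13, adjusted p = 0.0451; 0.0722 without the block).

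The 2 gingers were then compared directly, dried against fresh at the same dose. At 500 µg/mL 11 members were higher with dried ginger and 3 lower, where 11.3% of all genes were called higher and 11.3% lower. ERN1 was 0.75 ± 0.06 (adjusted p = 3.29e-10) higher on the log2 scale and XBP1 0.25 ± 0.05 (0.000896) higher, and 3 of 5 sensors and regulators were called. HYOU1 (0.17 ± 0.03, 0.00059), HSPA5 (0.16 ± 0.04, 0.00244) and SIL1 (0.31 ± 0.06, 0.000163) were higher among the chaperones. DNAJC10 (0.35 ± 0.04, 2.28e-08) and PDIA5 (0.27 ± 0.07, 0.00317) were higher among the disulfide enzymes.

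CALR was 0.35 ± 0.03 lower with dried than with fresh ginger at 500 µg/mL (log2 change -0.35, adjusted p = 7.79e-09). MANF, a secreted ER stress protein, was at 32.9, 34.3 and 35.6 CPM with dried and 40.4, 38.9 and 41.3 CPM with fresh ginger (-0.23 ± 0.06, 0.00373), and DNAJB11 was the third lower member (-0.15 ± 0.04, 0.0134). Among 9 tested degradation genes DERL1 alone was called (0.12 ± 0.04, 0.0251). Both DNAJB11 and DERL1 lost their calls with single libraries left out (adjusted p 0.0589 to 0.0921 and 0.0658 to 0.0699). SEC61A1 was higher (0.13 ± 0.04, 0.0196) but not without replicate 1 of either ginger, fresh replicate 2 or dried replicate 3 (0.0524 to 0.0868). HERPUD1 (0.09 ± 0.04, 0.121), DNAJB9 (0.18 ± 0.07, 0.0702) and SDF2L1 (-0.18 ± 0.09, 0.162) were not called.

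At 100 and 20 µg/mL no member was called between the gingers (0.481% and 0.0% of all genes called in either direction). At an unadjusted p under 0.05 there were 9 members at 100 µg/mL and 2 at 20 µg/mL, and DESeq2 called 0 at both doses. Without fresh ginger replicate 3 the count at 100 µg/mL was 1. Fresh ginger replicate 2 differed from replicates 1 and 3 more than any other libraries of 1 group differed. The chi-square per gene was 14.13 and 10.94 at 100 µg/mL and 11.08 and 12.2 at 20 µg/mL. The absence of calls at these doses therefore does not show that the gingers acted alike. The change from low to high dose was larger or smaller in dried than in fresh ginger for 8 members, 5 in the positive and 3 in the negative direction, where 5.56% and 5.67% of all genes were called. ERN1 had the largest such difference, 0.90 ± 0.09 on the log2 scale (adjusted p = 6.58e-08).

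**Figure D4:**
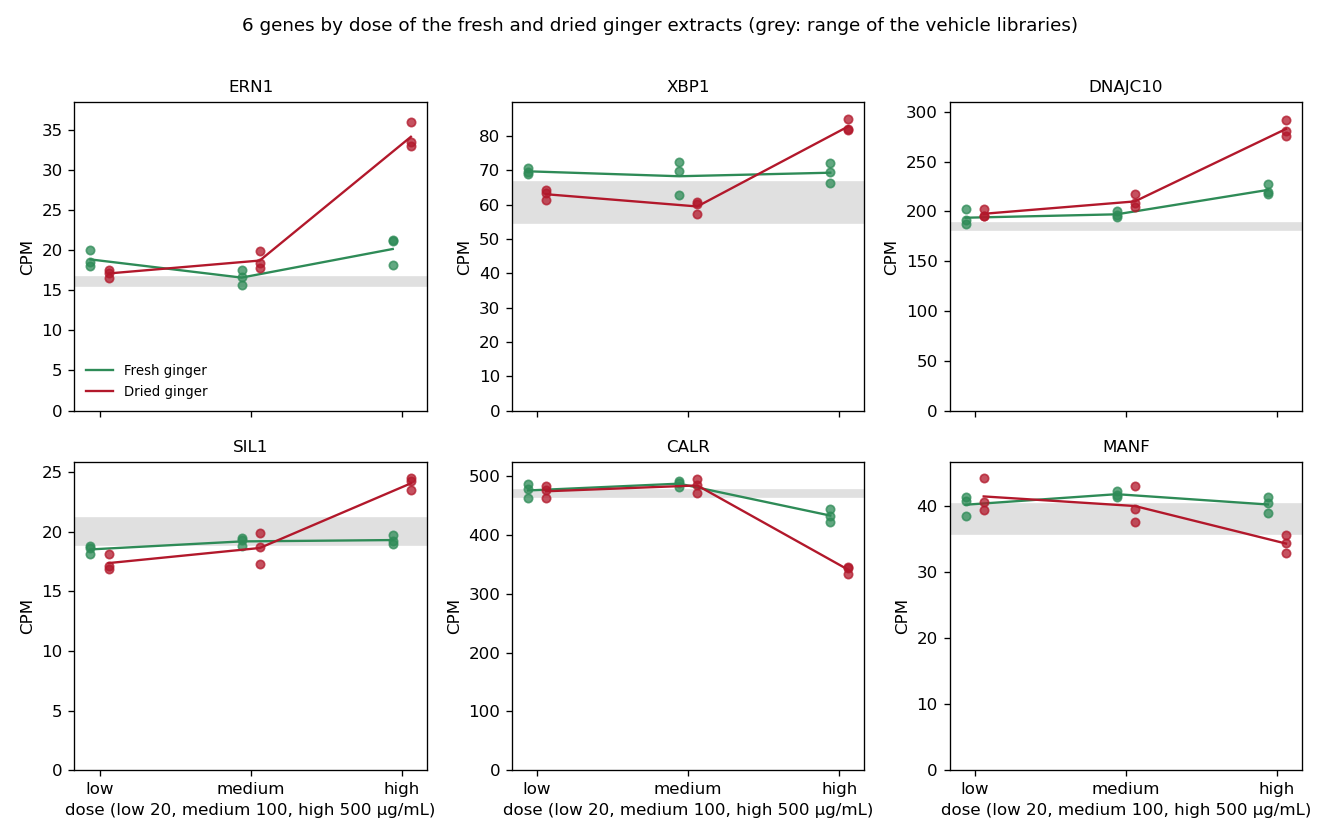
Level of 6 members in each library (points) and group mean (lines) by dose of fresh ginger (green) and dried ginger (red), in CPM on axes that start at 0; grey bands span the 3 vehicle libraries. At the high dose the 3 dried ginger libraries of ERN1 (33.0 to 35.9 CPM) lie above those of fresh ginger (18.1 to 21.2 CPM), those of CALR lie below, and at the low dose the points of both overlap except for ERN1 and XBP1, where fresh ginger is higher.

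With Sayeok-tang at 500 µg/mL some chaperones and disulfide enzymes were called higher, and no degradation gene was. Against vehicle 12 members were higher and 2 lower, where 9.39% of all 16721 genes tested were called higher and 9.53% lower, with a median log2 change of 0.06 against 0.00. The 12 were 6 of 12 chaperones, 5 of 8 disulfide enzymes and ERN1, and both lower members were among the 9 tested degradation genes. HYOU1 was at 97.8, 99.9 and 94.2 CPM against 81.4 to 84.0 CPM in vehicle (0.23 ± 0.04, adjusted p = 1.36e-05), and HSP90B1 at 943, 937 and 900 CPM against 811 to 824 CPM (0.18 ± 0.03, 1.92e-05), with no overlap of either. DNAJC10 rose by 0.23 ± 0.03 (5.11e-06), PDIA3, the isomerase that partners calnexin and calreticulin, by 0.18 ± 0.03 (0.000121), and ERN1 by 0.31 ± 0.06 (0.0005). The rise of PDIA3 was not particular to this group, since PDIA3 was above the vehicle mean in every replicated group. XBP1 (0.03 ± 0.05, 0.705), DNAJB9 (-0.13 ± 0.09, 0.357), HERPUD1 (-0.09 ± 0.04, 0.164), SDF2L1 (-0.10 ± 0.07, 0.314) and CALR (0.04 ± 0.03, 0.448) were not called.

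Of the 14 calls with Sayeok-tang at 500 µg/mL, 8 held with each library left out. HSPA5 (0.11 ± 0.03, adjusted p = 0.0112) was not called without vehicle replicate 1 (0.075) or high-dose replicate 2 (0.0509), and PDIA4 (0.11 ± 0.03, 0.0116) not without vehicle replicate 2 or high-dose replicate 1 or 2 (0.056 to 0.074). The lower members were EDEM2 (-0.15 ± 0.04, 0.0145), not called without vehicle replicate 2 or 3 or high-dose replicate 3 (0.0516 to 0.13), and DERL1 (-0.10 ± 0.03, 0.0332), not called without any of the 6 libraries but vehicle replicate 2 (0.0611 to 0.139). Against its low dose the high dose gave 10 members higher (3.82% of all genes) and none lower (3.77%), and HSPA5 (0.14 ± 0.03, 0.00276) and DNAJC10 (0.17 ± 0.03, 0.000854) were called in every refit. That count of 10 became 5 without high-dose replicate 2 or low-dose replicate 1 and 6 without high-dose replicate 1 or low-dose replicate 3.

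At 100 µg/mL Sayeok-tang gave 4 higher and 3 lower members (10.8% of all genes called in either direction) and at 20 µg/mL 1 and 4 (8.34%). EDEM2 (-0.19 ± 0.04, adjusted p = 0.00358) and DERL1 (-0.14 ± 0.03, 0.00776) were lower at 100 µg/mL in every refit, and HERPUD1 (-0.18 ± 0.04, 0.00753) at 20 µg/mL. EDEM2 was below every vehicle library at 20 µg/mL too. At 100 µg/mL HYOU1 (0.13 ± 0.04, 0.0164) was higher but not without medium-dose replicate 3 (0.0742), and HSP90B1 (0.10 ± 0.03, 0.0209) but not without vehicle replicate 2 or any medium-dose replicate (0.0533 to 0.0674). The 7 calls at 100 µg/mL became 4 without medium-dose replicate 1 and 3 without replicate 2 or 3. The 5 calls at 20 µg/mL became 2 without vehicle replicate 3 or low-dose replicate 1 or 3, and 3 without low-dose replicate 2.

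Bojungikgi-tang, with 2 libraries a dose, gave few calls among these genes. At 500 µg/mL 1 member was higher (1.39% of all genes) and 1 lower (2.33%). PDIA3, above the vehicle mean in every replicated group of every extract, was at 0.13 ± 0.04 (adjusted p = 0.0379). HERPUD1, at 41.3 ± 0.05 (SD, n = 2) CPM against 46.3 ± 0.9 (n = 3) in vehicle, was at -0.17 ± 0.05 (0.0468). Of the genes followed in every group, DNAJB9 (-0.28 ± 0.10, adjusted p = 0.123), HYOU1 (0.09 ± 0.04, 0.274), XBP1 (0.05 ± 0.05, 0.719) and HSPA5 (-0.07 ± 0.03, 0.302) were not called. Leaving out 1 library of Bojungikgi-tang leaves a single one, which is then assumed to vary like the other groups. The count of 2 became 0 without vehicle replicate 2 or high-dose replicate 3 and 1 without vehicle replicate 3 or high-dose replicate 2. At 100 µg/mL edgeR called 0 members (1.94% of all genes), with 12 at an unadjusted p under 0.05 and 1 by DESeq2, and 2 were called without vehicle replicate 1 or without vehicle replicate 3. At 20 µg/mL 3 were higher and 1 lower (6.94% of all genes). The lower one was HERPUD1 (-0.20 ± 0.05, 0.0113), not called without low-dose replicate 3 (0.234), and this count of 4 became 1 without low-dose replicate 2 and 0 without replicate 3. The high dose against the low dose gave 0 calls by edgeR and by DESeq2 (0.712% of all genes), with 3 members at an unadjusted p under 0.05.

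Between the formulas at 500 µg/mL, HSPA5 was the 1 member called (2.05% of all genes), at 695, 694 and 676 CPM with Sayeok-tang and 593 and 625 CPM with Bojungikgi-tang. Its difference of 0.17 ± 0.03 (adjusted p = 0.00169) was not called without Bojungikgi-tang replicate 2 (0.109), which leaves 1 library in that group. The count became 2 without that library and 3 without Bojungikgi-tang replicate 3 or Sayeok-tang replicate 3. In the difference of the changes from low to high dose, edgeR called 0 members (0.275% of all genes), with 11 at an unadjusted p under 0.05 and 1 by DESeq2.

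Pinelliae Tuber at 500 µg/mL gave 1 higher member (3.85% of all genes) and 4 lower (5.08%), with a median log2 change of -0.05 against 0.00. SDF2L1, at 13.1 ± 0.3 (SD, n = 3) CPM against 17.0 ± 1.8 in vehicle, was lower by the largest amount (-0.38 ± 0.11, adjusted p = 0.027), and SIL1 (-0.21 ± 0.07, 0.0392), CALR (-0.13 ± 0.03, 0.00656) and SELENOS, a degradation factor (-0.15 ± 0.05, 0.0401), were the other 3. SIL1 and SELENOS were below the vehicle mean at the low dose of every extract (log2 ratio -0.28 to -0.08 and -0.29 to -0.07). DNAJC3 was higher (0.16 ± 0.04, 0.0139). HSPA5 (-0.07 ± 0.03, 0.188), HSP90B1 (0.06 ± 0.03, 0.274), HYOU1 (0.02 ± 0.04, 0.803), HERPUD1 (-0.06 ± 0.05, 0.509), XBP1 (0.08 ± 0.09, 0.651), PDIA4 (-0.07 ± 0.03, 0.14) and DNAJB9 (-0.23 ± 0.08, 0.0677) were not called. None of the 5 calls held with every library left out. The count became 2 without vehicle replicate 2 or high-dose replicate 1, 3 without vehicle replicate 3 or high-dose replicate 3, and 0 without high-dose replicate 2.

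At 100 µg/mL Pinelliae Tuber gave 2 lower members (7.17% of all genes called in either direction), DNAJB9 (-0.29 ± 0.08, adjusted p = 0.0241) and SEC61B (-0.17 ± 0.05, 0.0454). This count became 4 without vehicle replicate 1 and 0 without vehicle replicate 3 or medium-dose replicate 2 or 3. At 20 µg/mL 2 were higher and 2 lower (5.51%), and the count of 4 became 2 without vehicle replicate 1 or 3, 1 without vehicle replicate 2 and 0 without low-dose replicate 2 or 3. The high against the low dose gave 0 calls by edgeR and by DESeq2 (0.0663% of all genes), with 1 member at an unadjusted p under 0.05.

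Coptidis Rhizoma and Zizyphi Fructus had 1 library a dose, so their values have no replicate check and no p-value. A size rule stood in for a test. A gene passed where its level, with 0.5 CPM added, differed from the vehicle mean by 1.5-fold or more and was beyond all 3 vehicle libraries, and genes with a mean under 5 CPM were left aside. At 110 µg/mL Coptidis Rhizoma had 2 members past the rule upward and 2 downward, where 7.34% of 10984 genes passed in either direction. ERN1 was at 42.1 CPM (log2 ratio 1.37) and XBP1 at 92.6 CPM (0.63), and CALR was at 236 CPM (-1.0) and SDF2L1 at 9.38 CPM (-0.83). HERPUD1 at 66.5 CPM, HYOU1 at 110 CPM and HSPA5 at 798 CPM were above every vehicle library, and HSP90B1 at 619 CPM and PDIA4 at 170 CPM were below every vehicle library, without passing the rule. The median log2 ratio over 12 chaperones and cofactors was -0.31, and over 8 disulfide enzymes -0.22. It was -0.03 over 9 degradation genes, 0.26 over 5 sensors and regulators and -0.12 over 2 translocon subunits, against -0.02 over the 10984 genes.

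At 22 µg/mL 1 member was past the rule upward and 3 downward (2.86% of all genes). ERN1 was at 29.95 CPM (0.89), SDF2L1 at 7.92 CPM (-1.06), CRELD2, named after its value was seen, at 7.21 CPM (-0.74) and CALR at 303 CPM (-0.64). At 4.4 µg/mL ERN1 alone passed, at 24.4 CPM (0.60), with 0.91% of all genes. ERN1 and CALR were thus ordered by dose over these 3 libraries, and so were other members. Of the genes followed in every group, HSPA5, HYOU1, HERPUD1 and DNAJB9 were higher the higher the dose, HSP90B1 and PDIA4 lower, and SDF2L1 and XBP1 not ordered. For DNAJB9 this order was not a rise above vehicle. Its log2 ratios to vehicle were -0.03, -0.24 and -0.42 from high to low dose. DNAJB9 was within the vehicle range at the high dose and below every vehicle library at the medium and low dose. HSPA5 was below every vehicle library at the low dose. XBP1, at 92.6, 81.9 and 84.3 CPM from high to low dose, and HERPUD1, at 66.5, 59.9 and 57.9 CPM, were above every vehicle library at each dose. HSP90B1, at 648.5 CPM at 22 µg/mL and 706 CPM at 4.4 µg/mL, and PDIA4, at 181.5 and 204 CPM, were below every vehicle library, as at the high dose. The medium and low libraries are those with the mitochondrial shares of 15.9% and 15.0%, and the high-dose library had 9.92%; the part of that share in these values was not tested. Zizyphi Fructus had no member past the rule at 500 µg/mL (0.22% of 10930 genes) or 100 µg/mL (0.165%), and SDF2L1 alone at 20 µg/mL (11.1 CPM, log2 ratio -0.59; 0.21%).

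**Figure D5:**
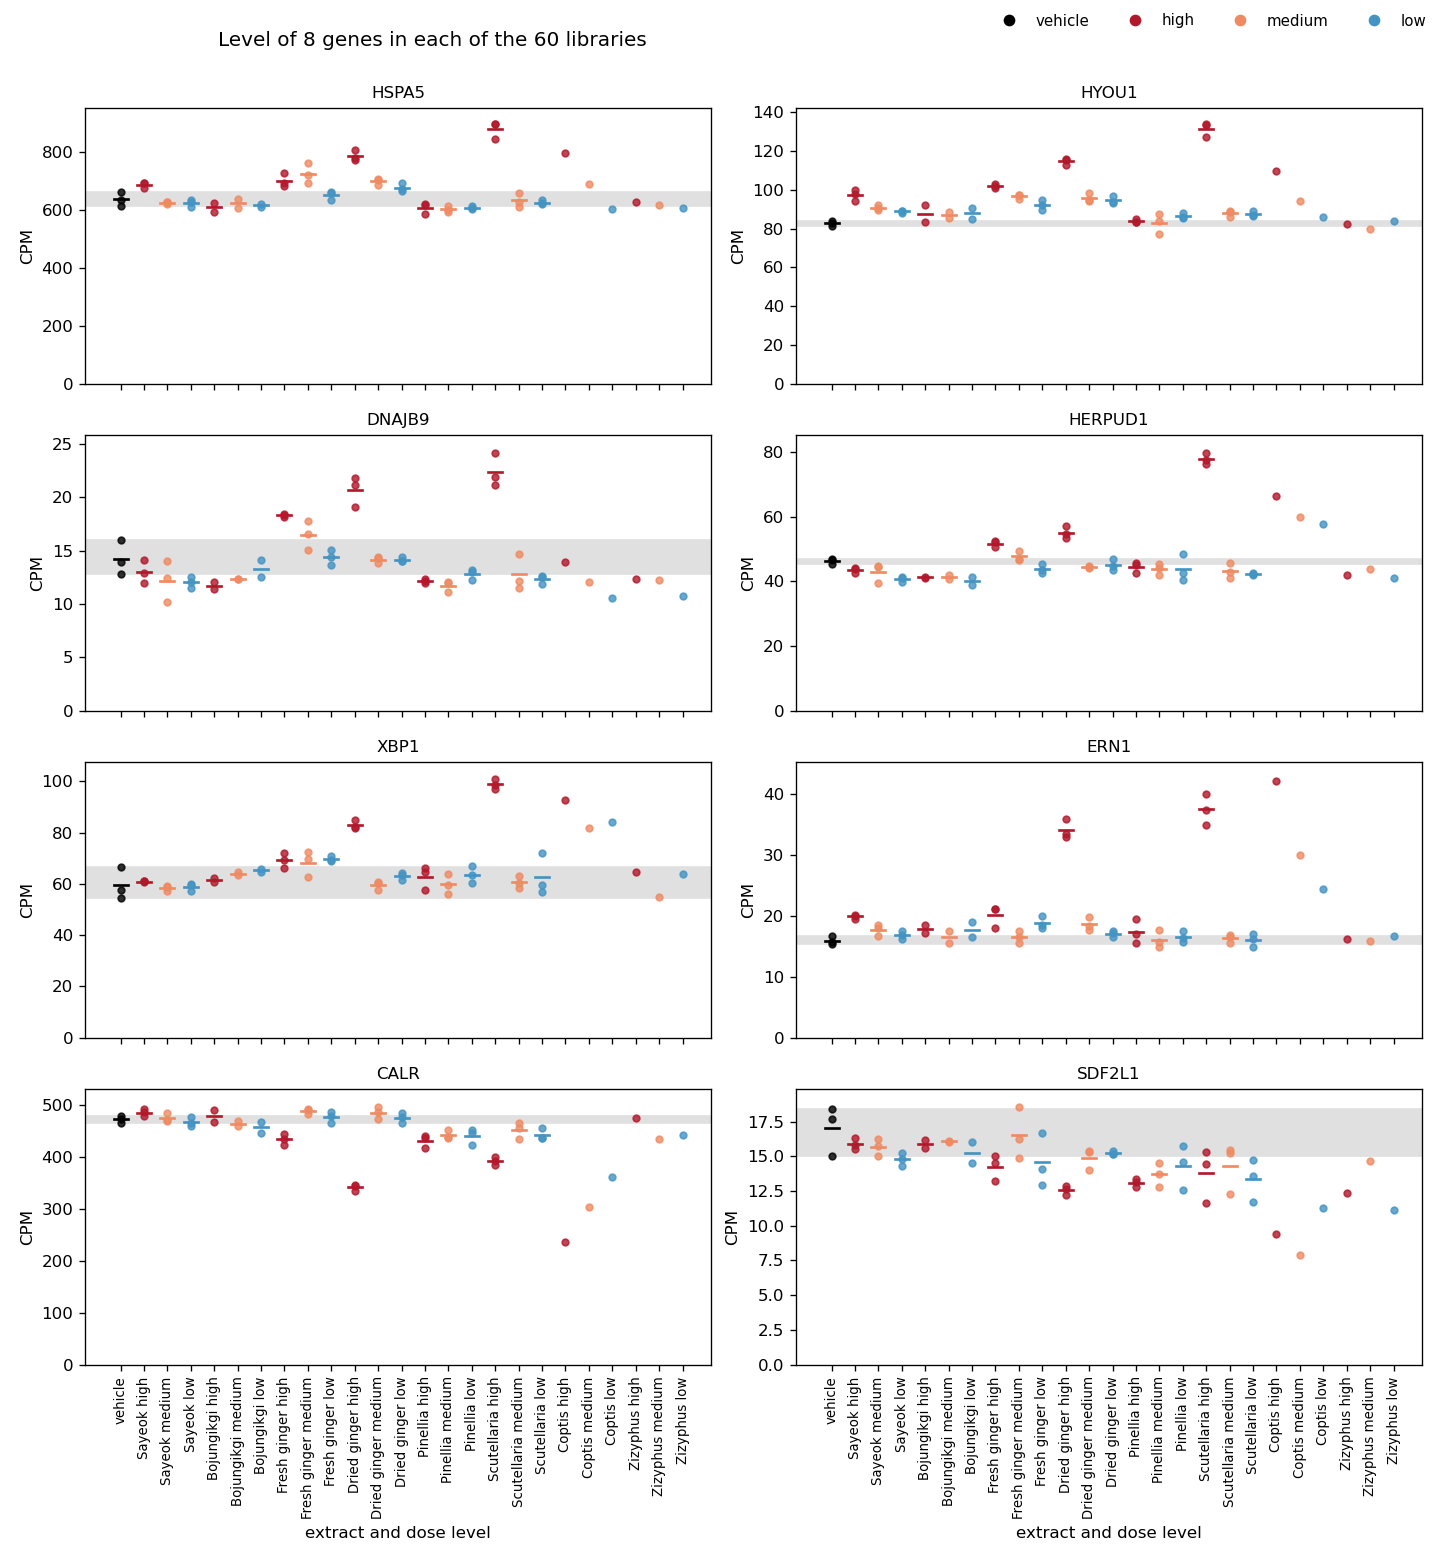
Level of 8 members in each of the 60 libraries, in CPM on axes that start at 0, with points coloured by dose, bars at the means of groups with more than 1 library, and grey bands over the range of the 3 vehicle libraries. ERN1, XBP1 and HERPUD1 stand above the band at the high dose of Scutellaria, dried ginger and Coptis. CALR and SDF2L1 fall below it at the high dose of dried ginger and at each dose of Coptis. SDF2L1 is lowest with Coptis at the medium dose, at 7.92 CPM. Both genes lie below the band in other groups too, CALR among them at the high dose of Scutellaria and fresh ginger.

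Members with ERSE or ERSE-II included both higher and lower ones. With Scutellariae Radix at 190 µg/mL 7 of the 10 were higher and 2 lower (median log2 change 0.18), and of the 24 other tested members with a promoter window 16 were higher and none lower (median 0.18), beside 20.2% of all genes higher and 20.0% lower. With dried ginger at 500 µg/mL the counts were 6 higher and 2 lower of 10 (median 0.21) and 14 higher and 2 lower of 24 (median 0.20), beside 20.2% and 19.0% of all genes. The 2 lower members of the 10 were CALR and SDF2L1 in both. With dried ginger against its low dose, 4 of the 10 were higher and 4 lower (16.8% and 16.0% of all genes), the lower ones being CALR, SDF2L1, CRELD2 and HSP90B1. Of the 24 others 9 were higher and 2 lower. With Scutellariae Radix high against low, 6 of the 10 were higher and 1, CALR, was lower (15.5% and 15.6% of all genes). There 18 of the 24 others were higher and none lower. These comparisons with vehicle share the vehicle libraries.

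Other genes of the ER and of neighbouring stress programmes, from lists chosen with earlier results of these data known, were read in the same fits. The ATF4 branch, which raises amino acid supply and redox genes when PERK or another kinase acts on translation, had 14 of 16 genes higher and none lower with Scutellariae Radix at 190 µg/mL (median log2 change 1.11) and 15 of 16 with dried ginger at 500 µg/mL (0.90). Of all genes, 20.2% were called higher with either extract, and 20.0% and 19.0% lower. DDIT3, the transcription factor CHOP, was higher by 1.84 ± 0.07 (adjusted p = 2.69e-23) and 1.09 ± 0.07 (1.78e-13), and the kinase-like inhibitor TRIB3 by 1.97 ± 0.04 (6.01e-32) and 1.54 ± 0.05 (1.82e-18). ASNS, asparagine synthetase, was higher by 1.12 ± 0.03 (2.94e-26) and 1.06 ± 0.04 (7.39e-18), and ATF4 itself by 0.41 ± 0.03 (1.58e-13) and 0.35 ± 0.04 (1.57e-07). Fresh ginger (12 of 16 higher, median 0.35) and Sayeok-tang (10 of 16, median 0.22) at 500 µg/mL gave smaller medians, where 6.21% and 9.39% of all genes were called higher. Bojungikgi-tang (1 of 16 higher) and Pinelliae Tuber (none higher, 3 lower) had medians of 0.04 and -0.05. Of all genes, 1.39% were called higher with Bojungikgi-tang, and 3.85% higher and 5.08% lower with Pinelliae Tuber.

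A list of 14 heat shock genes was mainly of the cytosol, the counterpart of the ER chaperones. It also held HSPD1 and HSPE1 of the mitochondrial chaperonin and the transcription factor HSF1. Of the 14, 13 were lower and 1 higher with Scutellariae Radix at the high dose (median log2 change -0.61). Of all genes, 20.0% were called lower and 20.2% higher there. At the high dose of dried ginger 12 of the 14 were lower (-0.39) and of Sayeok-tang 10 (-0.14), with none higher. Fresh ginger had 6 lower (-0.13) and Bojungikgi-tang 6 (-0.11), again with none higher. Of all genes, 19.0%, 9.53%, 7.16% and 2.33% were called lower in these comparisons, in that order. Pinelliae Tuber had 3 lower and 1 higher (-0.03), where 5.08% of all genes were called lower and 3.85% higher. HSPA1A, the inducible Hsp70, was at -1.37 ± 0.05 (adjusted p = 4.03e-19) with Scutellariae Radix and -0.80 ± 0.05 (2.51e-14) with dried ginger. Its reads cannot be told apart with certainty from those of its near-identical copy HSPA1B.

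Counts for further ER genes outside the list stand beside 20.2% of all genes higher and 20.0% lower with Scutellariae Radix, and 20.2% and 19.0% with dried ginger. Of 20 other degradation genes, 7 were higher and 5 lower with Scutellariae Radix at 190 µg/mL (median log2 change 0.01) and 8 higher and 3 lower with dried ginger at 500 µg/mL (0.04). Of 28 other folding genes the counts were 11 higher and 3 lower (0.06) and 15 higher and 2 lower (0.17). Of 25 other translocation and glycosylation genes they were 7 higher and 5 lower (0.00) and 9 higher and 3 lower (0.04). A list of other sensors and ER-phagy genes also held the cell death genes BAX, BAK1, BCAP31 and TMBIM6. Of its 14 tested genes, 5 were higher and 3 lower (0.06) and 2 higher and 1 lower (0.02).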

How the data were processed

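Per the submitters' processing notes, the authors used FastQC 0.11.9, Trim Galore 0.6.5, STAR 2.7.3a and RSEM 1.3.3 with hg38 (GRCh38) on 100 bp strand-specific reads. For the annotation release and the counting's strand setting, nothing is given in the sources used here. The authors deposited expected counts per Ensembl gene; 24.4% of non-zero values were not whole and were rounded. Of the table's 269 value columns, 209 belong to no sample described here and were not used. Precision depended on library totals, of 17.51 to 38.54 M counts, and on the spread between replicates. Symbols and positions came from GENCODE 29.

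Each fit used edgeR 4.0.16 in R 4.3.3 (filterByExpr with a minimum count of 10, TMM, robust quasi-likelihood F-test, Benjamini-Hochberg adjustment over all genes tested). There were 3 fits, each with the vehicle libraries and 2 extracts: the formulas, the gingers, and Pinelliae Tuber with Scutellariae Radix. They gave 30 comparisons. SEs are analytic, and the fit was tested on simulated data. CPM values use TMM factors over all 60 libraries. DESeq2 1.42.0, other scalings and filters, 1 fit of all libraries, the replicate block and left-out libraries were alternatives.

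HSPA5, HSP90B1, HYOU1, SDF2L1, DNAJB9, HERPUD1, XBP1 and PDIA4 were followed in every group; where a comparison with vehicle gives no value for one of them, it was not called. Other named members are up to 2 called per class and direction with the largest change at the high dose or between extracts. DDIT3, TRIB3, ASNS, ATF4 and HSPA1A stand for their lists. Further members, such as those named as not called or at lower doses, were chosen after their values were seen. Members and lists were chosen with earlier results of these data known.

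Replicate numbers recur across groups. Libraries with the same number deviated together, with every correlation over 0.1, in 2 of 28 comparisons checked: dried against fresh ginger at the high dose (0.164, 0.195 and 0.36) and fresh ginger high against low dose (0.12, 0.226 and 0.326).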

Additional observations from a re-analysis of the deposited data

Results flagged for a closer look

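The change from the low to the high dose differed between dried and fresh ginger for 8 members, by the test of that difference in the ginger fit (edgeR, adjusted over all genes, n = 3 libraries in each of 4 groups). The values are the dose change of dried ginger minus that of fresh ginger on the log2 scale. It was 0.90 ± 0.09 (SE, adjusted p = 6.58e-08) for ERN1, 0.40 ± 0.08 (0.000676) for XBP1 and 0.24 ± 0.07 (0.0142) for ATF6 among the sensors and regulators. SIL1 (0.41 ± 0.08, 0.00122) and the reductase DNAJC10 (0.32 ± 0.05, 7.15e-05) were also raised more by dried ginger. In the negative direction stood CALR (-0.34 ± 0.05, 1.12e-05), MANF (-0.27 ± 0.08, 0.0246) and DNAJB11 (-0.23 ± 0.06, 0.0138). DNAJB11 was not called without fresh ginger high-dose replicate 2 (0.0536) or dried ginger low-dose replicate 3 (0.057), and MANF not without any of 6 libraries: high-dose replicates 1 and 3 and low-dose replicate 3 of fresh ginger, and high-dose replicates 1 and 2 and low-dose replicate 3 of dried ginger (0.0523 to 0.0962). With each library left out, the other 6 stayed called. With the replicate number as a block, P4HB (0.15, adjusted p = 0.0329) and SEC61A1 (0.16, 0.0419) were called as well. The pairing by number holds in 2 comparisons of the same libraries, dried against fresh ginger at the high dose and fresh ginger high against low.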

How the results depend on the processing

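No call among the 231 member results changed direction under any alternative. They stayed called in 221 cases in 1 fit of all 60 libraries, 212 with DESeq2, 226 with relative log expression scaling, 208 without the filter on low counts and 228 with the replicate block. Some counts of called members moved by more than 1.5 times, and the cause was not tested. With DESeq2 the counts were 3 for the low dose of Sayeok-tang (5 in edgeR), 1 for the high (2) and 1 for the medium dose (0) of Bojungikgi-tang, 4 between the formulas (1), 1 for the difference of their dose changes (0) and 3 for Pinelliae Tuber at the high dose (5). In 1 fit of all 60 libraries they were 2 for Sayeok-tang low, 0 for Bojungikgi-tang high, 3 between the formulas, 9 for fresh ginger medium (5) and 15 for dried ginger medium (9). Without a filter on low counts they were 2 for Bojungikgi-tang medium, 3 between the formulas, 3 for fresh ginger high against low (6), 1 between the gingers at the medium dose (0), 5 for Pinelliae Tuber medium (2), 1 for its high against low dose (0) and 4 for Scutellariae Radix low (2). With the replicate block the counts were 1 for Bojungikgi-tang medium and 2 between the formulas. The block ended 3 calls: EDEM2 with Sayeok-tang low (adjusted p = 0.0509), PDIA3 with Bojungikgi-tang low (0.0578) and SDF2L1 with Scutellariae Radix low (0.0606). For the size rule, a 2-fold limit left 1 member each for Coptidis Rhizoma high and medium and 0 for its low dose and for Zizyphi Fructus low, and 1 CPM added left 0 for the low doses of both.

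With 1 library left out, counts against vehicle ranged from 3 to 10 for Sayeok-tang medium, 2 to 7 for its low dose, 0 to 2 for Bojungikgi-tang high and for its medium dose, and 0 to 5 for its low dose. They ranged from 13 to 17 for fresh ginger high, 3 to 7 for its medium and 3 to 5 for its low dose, and 2 to 5 for dried ginger low. For Pinelliae Tuber they were 0 to 6, 0 to 4 and 0 to 3 at the high, medium and low dose, and for Scutellariae Radix 1 to 4 and 1 to 3 at the medium and low dose. Between doses or extracts they were 5 to 9 for Sayeok-tang and 3 to 5 for fresh ginger high against low, 1 to 3 between the formulas and 0 to 1 between the gingers at the medium dose. Depth limits DERL3, which could not be tested.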
